A study of Mus musculus with 2 samples.

Results

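Barcodes with endothelial transcripts but no UMI of Gpihbp1 or Aplnr were examined in regenerating mouse digit tips. A unique molecular identifier (UMI) counts an RNA molecule once, a barcode stands for a droplet that held a cell, and CP10k is UMIs per 10000 UMIs of a barcode. A barcode was a member when it had at least 500 genes, at most 10% mitochondrial UMIs and at least 3000 UMIs, a sum of Pecam1, Cdh5, Kdr, Egfl7, Esam and Emcn of at least 5 CP10k, a sum of C1qa, C1qb and C1qc under 10 CP10k, and 0 UMIs of Gpihbp1 and of Aplnr. The rule found 274 members among 1138 endothelial barcodes, 3937 barcodes that passed the quality limits and 11023 deposited barcodes. They are set against the 809 endothelial barcodes with at least 2 UMIs of Gpihbp1 and Aplnr, called positive here. The remaining 55 endothelial barcodes had a single UMI of these genes.

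There were 2 droplet single-cell libraries (10x Genomics, 3′ ends). The first came from PdgfraCreERT;R26-LSL-TdT mice and the other from Lmx1bCreERT2;R26-LSL-TdT mice. Adult animals of 10 to 12 weeks received intraperitoneal tamoxifen, 3 mg a day for 4 days. Their digits were amputated 10 days afterwards, and the tissue that had regrown was collected on day 14. All mice carried an inducible Cre, driven from Pdgfra or from Lmx1b, and a Cre-dependent tdTomato reporter. No library without amputation or without Cre was analysed here, and the labels do not say how many animals were pooled. With 1 library per line there was no replicate and no test: a fold is a ratio of summed UMIs, scaled to each set's total (CPM), with its 95% interval in brackets, and intervals cover counting error only. The members were chosen by the values of Gpihbp1, Aplnr, the 6 endothelial genes and the C1q genes, and clusters were drawn from the same barcodes, so every difference below is a description.

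Endothelial cells line blood and lymph vessels and take on arterial, capillary, venous or lymphatic programmes. Gpihbp1 anchors lipoprotein lipase on the capillary wall, and Aplnr, the apelin receptor, is used by sprouting and venous endothelium. Notch signalling, SOX factors and connexins mark arteries, leukocyte adhesion molecules mark venules, and the transcription factor Prox1 directs lymphatic identity. Mural cells, that is pericytes and smooth muscle, wrap the vessels and share a few transcripts with endothelium. On GRCm38, Gpihbp1 lies at chr15:75596628-75599481 and Aplnr at chr2:85136225-85139923, both on the plus strand.

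The Pdgfra library held 115 members among 414 endothelial barcodes (27.8%), and the Lmx1b library 159 among 724 (22.0%). The positive barcodes numbered 278 and 531 in these libraries. Median depth in the Pdgfra library was 11621 UMIs for members and 13415 UMIs for positive barcodes, and in the Lmx1b library 15007 UMIs for members and 13147 UMIs for positive barcodes. The files of the libraries held 49084751 and 66867027 UMIs in all. There were 10 barcode sequences present in both libraries, and 0 of them were endothelial.

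Most members did not carry the endothelial programme that the rule aimed at. Of Pecam1, Cdh5, Egfl7 and Esam, at least 3 were detected in 42 of 115 members of the Pdgfra library (36.5%, 95% Clopper-Pearson interval 27.7 to 46.0%). The Lmx1b library had 65 of 159 such members (40.9%, 33.2 to 48.9%). All 278 and 531 positive barcodes had at least 3. The sum of the 6 endothelial genes had a median of 7.87 CP10k in members and 60.3 CP10k in positive barcodes of the Pdgfra library. The Lmx1b medians were 7.95 CP10k in members and 71.8 CP10k in positive barcodes. Thus 73 members of the Pdgfra library and 96 of the Lmx1b library lay between the threshold and 10 CP10k, close to the lower bound of the rule. Just inside it, from 5 to 6 CP10k, there were 32 and 29 members, of which 26 and 23 lay in mural-like clusters. Just outside, from 4 to 5 CP10k, there were 37 and 46 barcodes without Gpihbp1 and Aplnr, of which 36 and 37 lay in mural-like clusters.

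**Figure D1:**
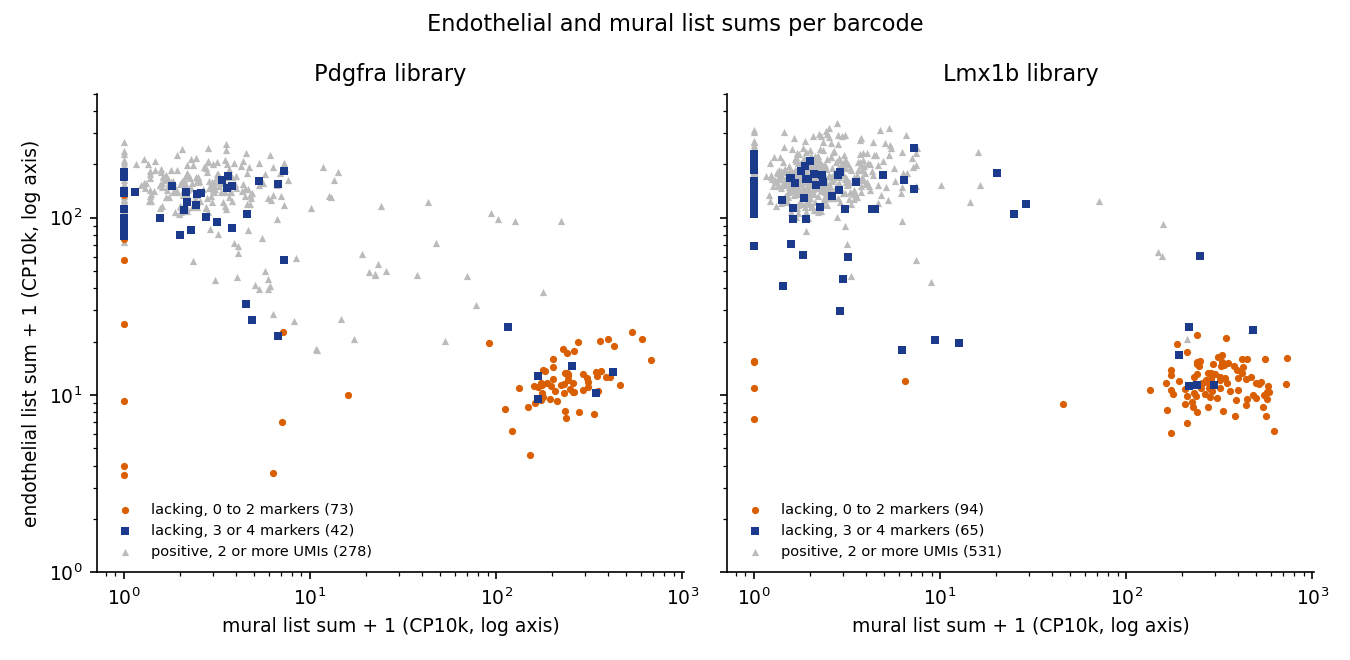
Each point is a barcode, with the summed mural list on the x axis and the summed endothelial list on the y axis (CP10k plus 1, log axes). Members with 0 to 2 of the 4 markers (73 and 94) lie mostly at high mural and low endothelial sums, while most of the 42 and 65 members with 3 or 4 markers lie among the positive barcodes.

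Clusters made from all passing barcodes placed 66 of 115 members of the Pdgfra library (57.4%) and 92 of 159 of the Lmx1b library (57.9%) in mural-like clusters. Mural genes such as Rgs5, Acta2 and Myh11, which mark pericytes and smooth muscle, made up a median of 238 CP10k in mural-like members of the Pdgfra library and 302 CP10k in those of the Lmx1b library. The endothelial list, 24 genes, reached a median of only 10.7 CP10k in these members in either library. Their entry rested on Esam, an adhesion molecule of endothelial junctions at chr9:37528078-37538319. Of the 1714 UMIs of the 6 endothelial genes in the 158 mural-like members, 1478 were Esam (86.2%). Esam was the sole detected gene of the 6 in 82 of them, and only 5 would have passed without it. The cluster led by Kcnj8, Rgs5 and Abcc9 held 42 and 47 of these members, and the cluster led by Tagln, Myh11 and Acta2 held 9 and 30. A further 15 and 12 lay in a mural-like cluster led by Cxcl1, Rgs16 and Il6, and the remaining 3, all of the Lmx1b library, in another led by Kcnk3 and Mstn.

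Mural-like members resembled the mural-like barcodes that fell below the rule. At least 2-fold higher in these members were 0.995% of genes in the Pdgfra and 1.17% in the Lmx1b library, with 3.25% and 3.26% at least 2-fold lower. The mural list stood at a median log2 fold of 0.11 in the Pdgfra and 0.20 in the Lmx1b library, with 0 of 10 measured genes past 2-fold in either. Of the endothelial list, 0 of 8 measured genes were at least 2-fold higher in the Pdgfra library and 7 of 15 in the Lmx1b library. Members as a whole are therefore called by their rule, and the comparisons of vessel types that follow use the 107 with 3 or 4 markers (39.1% of 274).

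**Figure D2:**
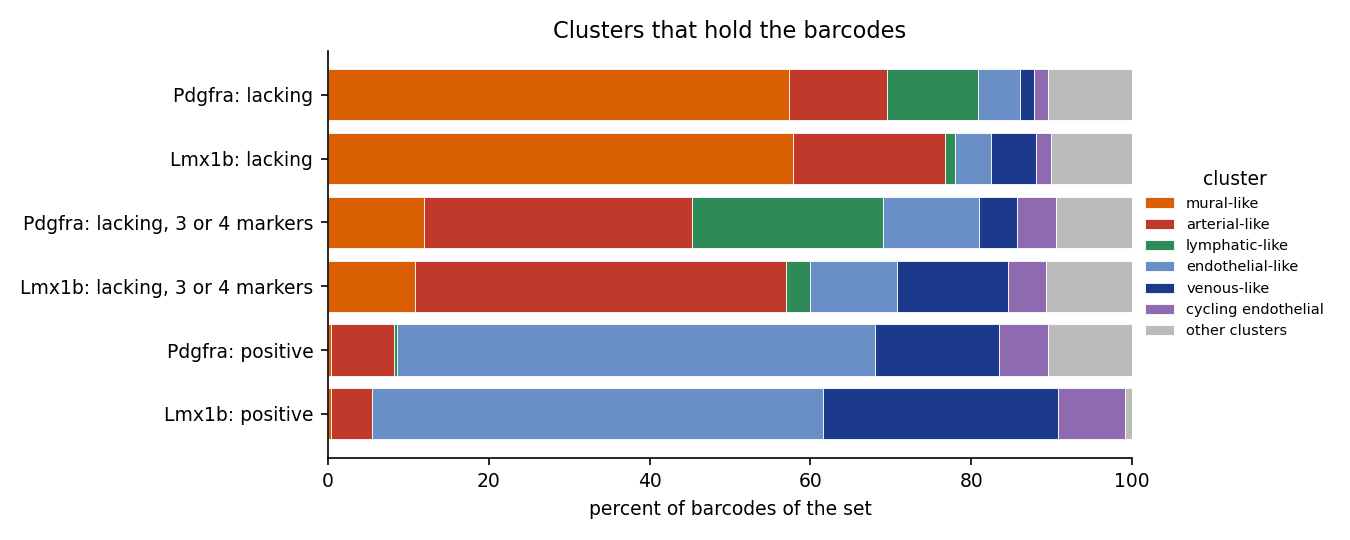
Bars give the percent of each set of barcodes (y axis) in each kind of cluster (x axis, 0 to 100%). Mural-like clusters hold 57.4% and 57.9% of all members, and arterial-like clusters hold the most members with 3 or 4 markers.

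Of the members that carried the endothelial markers, the arterial-like cluster held more than any other kind of cluster in both libraries, with 14 of 42 in the Pdgfra library and 30 of 65 in the Lmx1b library. The lymphatic-like cluster held 10 of 42 and 2 of 65, the venous-like cluster 2 and 9, and the 2 endothelial-like clusters 5 and 7 in sum. Mural-like clusters held 5 and 7 of them, cycling endothelial clusters 2 and 3, and other clusters 4 and 7. Positive barcodes lay mainly in the endothelial-like clusters, with 165 of 278 and 298 of 531. Gpihbp1 was among the 10 leading genes of both of these clusters and Aplnr among those of the larger one, so the placement of positive barcodes follows in part from the choice.

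The share of each cluster that lacked both genes differed widely. Neither gene was held out when the clusters were drawn, so these shares can follow in part from the clustering. In the lymphatic-like cluster 13 of 17 barcodes of the Pdgfra library lacked them (76.5%, 50.1 to 93.2%), as did 2 of 4 in the Lmx1b library. In the arterial-like cluster 14 of 42 (33.3%, 19.6 to 49.5%) and 30 of 61 (49.2%, 36.1 to 62.3%) lacked them. The venous-like cluster had only 2 of 48 (4.17%) and 9 of 173 (5.20%), and the endothelial-like clusters 6 of 173 (3.47%) and 7 of 311 (2.25%). Depth was alike on both sides in the arterial-like cluster, but not in all clusters. Arterial-like members had a median of 11620.5 UMIs and arterial-like positive barcodes 11563 UMIs in the Pdgfra library. The Lmx1b medians were 11868 UMIs in arterial-like members and 11091 UMIs in arterial-like positive barcodes. In the endothelial-like clusters of the Pdgfra library the medians were 4688.5 UMIs in the 6 members and 10988 UMIs in positive barcodes, and in those of the Lmx1b library 15354 UMIs in the 7 members and 12081 UMIs in positive barcodes. Lymphatic-like members of the Pdgfra library had a median of 7153 UMIs, and the single lymphatic-like positive barcode had 58550 UMIs. The part of depth in these shares was not tested.

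Gpihbp1 itself stood at 256 and 247 CPM in the arterial-like cluster of the Pdgfra and Lmx1b libraries, against 783 and 1146 CPM in the endothelial-like clusters. Aplnr stood at 101 and 52.3 CPM in the arterial-like cluster, against 578 and 566 CPM in the endothelial-like clusters. These contrasts too can follow in part from the clustering, which did not hold out either gene. In the lymphatic-like cluster of the Pdgfra library, Gpihbp1 UMIs came from 3 of 17 barcodes. Macrophages, which should lack both, had 0.511 and 1.10 CPM of Gpihbp1 and 1.02 and 3.66 CPM of Aplnr. Absence of both genes showed no steady trend with depth among barcodes with 3 or 4 markers. In the Pdgfra library 16.4% lacked them at 3000 to 6000 UMIs, 12.0% at 6000 to 12000, 17.6% at 12000 to 24000 and 6.12% at 24000 UMIs and over. The Lmx1b shares over the same ranges were 20.8%, 6.61%, 14.5% and 6.25%. A member is thus a barcode in which these RNAs were not detected at its depth, not one shown to be without them.

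**Figure D3:**
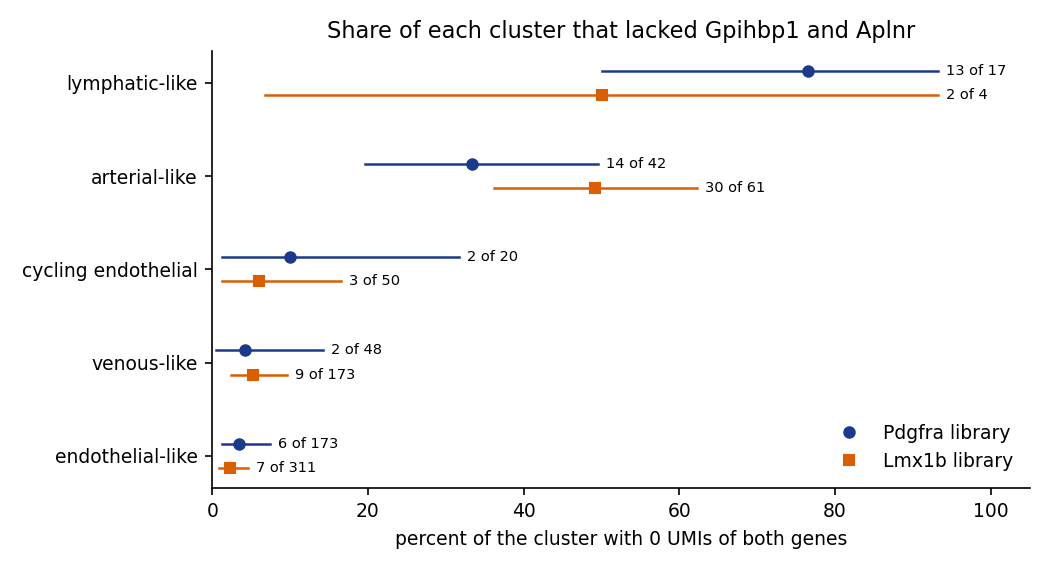
Points give the percent of each endothelial cluster with 0 UMIs of both genes (x axis) by cluster (y axis) and library, with 95% Clopper-Pearson intervals as lines. The lymphatic-like and arterial-like clusters lie above the venous-like and endothelial-like clusters in both libraries. Neither gene was held out of the clustering, so the shares can follow in part from it.

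Among barcodes with 3 or 4 markers, arterial genes were higher in members than in positive barcodes when UMIs were summed. Of the 15 genes of the arterial list, all measured, 9 were at least 2-fold higher in members of the Pdgfra library and 7 in those of the Lmx1b library, and 0 were at least 2-fold lower in either. Over all genes tested, 3.65% in the Pdgfra and 7.66% in the Lmx1b library were at least 2-fold higher, and 8.0% and 7.68% at least 2-fold lower. The list's median log2 fold was 1.41 in the Pdgfra and 0.97 in the Lmx1b library, beside −0.05 and −0.09 for all genes. Over all members, mural-like ones included, it was 0.57 in the Pdgfra and 0.16 in the Lmx1b library. With each barcode thinned to 3000 UMIs the Pdgfra value turned to −0.10. Thinning also changed which barcodes were members, to 167 from 115. Sema3g, a secreted semaphorin, had 170 CPM in members and 36.5 CPM in positive barcodes of the Pdgfra library, a fold of 4.65 (3.71 to 5.81). Its level in the Lmx1b library was 186 CPM in members and 40.3 CPM in positive barcodes, a fold of 4.61 (3.86 to 5.48). The folds of Sema3g were nearly the same in both libraries.

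Both arterial connexins, which couple neighbouring endothelial cells, were higher in members. Gja4 (connexin 37) had 296 CPM in members and 111 CPM in positive barcodes of the Pdgfra library, a fold of 2.68 (2.29 to 3.13). Lmx1b members had 324 CPM of Gja4 and Lmx1b positive barcodes 83.7 CPM, a fold of 3.87 (3.40 to 4.39). Gja5 (connexin 40) was sparse, with folds of 2.78 (1.42 to 5.14) in the Pdgfra and 5.40 (3.31 to 8.68) in the Lmx1b library. Sox17, a transcription factor of arterial specification at chr1:4490931-4497354 on the minus strand, had 403 CPM in members against 130 CPM in positive barcodes of the Pdgfra library. Sox17 had 317 CPM in members against 161 CPM in positive barcodes of the Lmx1b library, a fold of 1.97 (1.75 to 2.22), just under 2-fold. In the Pdgfra library, however, a smaller share of members (42.9%, 27.7 to 59.0%) than of positive barcodes (73.0%, 67.4 to 78.1%) had a Sox17 UMI. The Lmx1b shares were 80.0% of members and 75.9% of positive barcodes. Gja4 was detected in 47.6% and 55.4% of members of the Pdgfra and Lmx1b libraries, against 33.8% and 25.8% of positive barcodes.

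Notch ligands and targets differed among themselves. Jag1, a Notch ligand, was 3.22-fold higher in members of the Pdgfra and 4.04-fold higher in those of the Lmx1b library. The targets Hey1 (3.76-fold and 2.55-fold) and Hey2 (14.1 CPM in members against 1.80 CPM in positive barcodes in the Pdgfra and 24.1 CPM in members against 1.79 CPM in positive barcodes in the Lmx1b library) were also higher in members of both. Dll4, the ligand that restrains sprouting, was at 1.29-fold in the Pdgfra and 0.88-fold in the Lmx1b library, and Efnb2, the arterial ephrin, at 1.38-fold and 1.19-fold. The Notch list, 9 genes, does not hold all of the genes named above and so does not summarise them. Of its genes, 1 was at least 2-fold higher in the Pdgfra and 3 in the Lmx1b library, beside 3.65% and 7.66% of all genes tested. None of the list, 0 of 9, was at least 2-fold lower, beside 8.0% and 7.68% of all genes tested. The list's median log2 fold was −0.00 in the Pdgfra and −0.21 in the Lmx1b library.

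Further genes of the arterial wall followed Sema3g. Bmx, a tyrosine kinase of arterial endothelium, had folds of 3.91 in the Pdgfra and 2.56 in the Lmx1b library. Fbln5, which organises elastic fibres, had folds of 3.16 and 7.09. Edn1, the vasoconstrictor endothelin 1, had 139 CPM in members against 26.3 CPM in positive barcodes of the Pdgfra library, and 181 CPM in members against 45.3 CPM in positive barcodes in the Lmx1b library. Edn1 alone of the 7 genes of the flow response list passed 2-fold: the shear-induced factors Klf2 (1.45 and 1.18) and Klf4 (1.46 and 1.32) did not. Of all genes tested, 3.65% and 7.66% were at least 2-fold higher and 8.0% and 7.68% lower in the Pdgfra and Lmx1b libraries. Cxcl12, a chemokine, was at 2.83-fold in the Pdgfra library but 1.22-fold in the Lmx1b library.

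Stretches of 250 bases are shown for reference for genes that differed, 3 arterial genes first, then a lymphatic and a capillary gene. They come from RefSeq promoters on GRCm38.p6 and are written 5′ to 3′ along the gene. Each ends at the start site the RefSeq table uses. For Gja5 and Mmrn1 this site lies inside the gene as GENCODE vM21 draws it (chr3:96904693-97077416 and chr6:60924976-60989378). For Sema3g and Rgcc it lies just inside the edge of the gene (chr14:31217860-31230352 and chr14:79288756-79301645). Capitals mark matches to AGGAAG or its reverse CTTCCT, an ETS core, and to ACAAAG or its reverse CTTTGT, a SOX core.
Gja4, chr4:127314040-127314289, minus strand: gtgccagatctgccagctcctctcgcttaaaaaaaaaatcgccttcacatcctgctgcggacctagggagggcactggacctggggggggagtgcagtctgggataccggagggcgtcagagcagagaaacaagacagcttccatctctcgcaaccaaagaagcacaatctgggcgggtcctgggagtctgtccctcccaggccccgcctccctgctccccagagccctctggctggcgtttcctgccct
Gja5, chr3:97032152-97032401, plus strand: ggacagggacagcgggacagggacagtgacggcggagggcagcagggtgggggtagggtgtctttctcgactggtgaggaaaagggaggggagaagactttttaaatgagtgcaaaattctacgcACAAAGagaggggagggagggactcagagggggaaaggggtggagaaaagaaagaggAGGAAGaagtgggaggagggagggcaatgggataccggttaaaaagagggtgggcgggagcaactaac
Sema3g, chr14:31217623-31217872, plus strand: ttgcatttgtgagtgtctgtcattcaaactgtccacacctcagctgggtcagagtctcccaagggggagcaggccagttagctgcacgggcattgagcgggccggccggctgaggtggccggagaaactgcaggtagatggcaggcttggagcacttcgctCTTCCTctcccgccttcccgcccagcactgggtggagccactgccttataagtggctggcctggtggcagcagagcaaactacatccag
Mmrn1, chr6:60944067-60944316, plus strand: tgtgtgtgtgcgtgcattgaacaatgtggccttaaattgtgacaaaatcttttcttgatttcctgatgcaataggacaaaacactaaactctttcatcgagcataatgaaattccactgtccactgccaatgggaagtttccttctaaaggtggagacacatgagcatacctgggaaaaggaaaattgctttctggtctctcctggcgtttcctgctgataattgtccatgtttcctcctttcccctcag
Rgcc, chr14:79301636-79301885, minus strand: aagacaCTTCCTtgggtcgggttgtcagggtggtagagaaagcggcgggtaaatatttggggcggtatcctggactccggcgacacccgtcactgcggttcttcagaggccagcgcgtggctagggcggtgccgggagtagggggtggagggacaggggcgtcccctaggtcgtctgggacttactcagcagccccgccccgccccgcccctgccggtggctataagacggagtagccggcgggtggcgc

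An ETS core lay in 9686 of 32851 such stretches (29.5%) and a SOX core in 5408 (16.5%), and matches of the 2 motifs overlapped in 58 (0.177%). Of 14 stretches from 12 of the 15 arterial genes, 3 held the ETS and 2 the SOX core. Of 9 from 8 of the 10 venous genes, 5 held the ETS and 1 the SOX core. Of 11 from 9 of the 10 lymphatic genes, 1 held the ETS and 4 the SOX core. Letters of this kind describe the window and locate no bound factor.

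Set against all positive barcodes, arterial-like members had 14 of 15 arterial genes at least 2-fold higher in the Pdgfra and 12 of 15 in the Lmx1b library, where 6.85% and 5.64% of all genes tested were. The venous list had 6 and 7 of its genes at least 2-fold lower, beside 22.6% and 18.5% of all genes tested. The cluster was named from arterial genes, so these counts follow from the choice.

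Within the arterial-like cluster, members and positive barcodes overlapped in their arterial genes. The arterial list's summed level per barcode was 50.1, 82.8 and 120 CP10k (lowest, median and highest) in the 14 members of the Pdgfra library, against 25.7, 64.2 and 110 CP10k in the 22 positive barcodes. The Lmx1b values were 15.7, 56.4 and 93.4 CP10k in 30 members, against 24.9, 59.2 and 152 CP10k in 27 positive barcodes. The ranges overlapped in both libraries. Between these sets, at least 2-fold higher were 6 of 15 arterial genes in the Pdgfra library and 1 of 15 in the Lmx1b library, beside 4.78% and 3.16% of all genes tested. At least 2-fold lower were 0 of 15 and 2 of 15, beside 6.03% and 5.46% of all genes tested. Gja4 had 757 CPM in members and 816 CPM in positive barcodes of the Pdgfra library, and 673 CPM in members and 630 CPM in positive barcodes of the Lmx1b library, with intervals of the fold that include 1.

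Among single genes compared within the arterial-like cluster, Mgp, Eln, Fbln5 and Edn1 were at least 2-fold higher in members of both libraries, and Col4a1, Col15a1, Plvap and Kdr at least 2-fold lower. Mgp and Eln were also leading genes of mural-like clusters, and Fbln5 of an unnamed cluster led by Mfap4 and Svep1. Mgp, matrix Gla protein, which limits calcification of vessel walls, had 3019 CPM in members against 635 CPM in positive barcodes of the Pdgfra library. Mgp had 5040 CPM in Lmx1b members against 670 CPM in Lmx1b positive barcodes. Eln, elastin, had 268 CPM in members against 85.7 CPM in positive barcodes in the Pdgfra and 549 CPM in members against 158 CPM in positive barcodes in the Lmx1b library. Fbln5 had 544 CPM in members against 85.7 CPM in positive barcodes in the Pdgfra and 535 CPM in members against 178 CPM in positive barcodes in the Lmx1b library. Edn1 had 368 CPM in members against 66.7 CPM in positive barcodes in the Pdgfra and 443 CPM in members against 151 CPM in positive barcodes in the Lmx1b library. Gkn3, a gene known from arterial endothelium in mice, had 116 CPM in members and 0 UMIs in positive barcodes of the Pdgfra library, but all 29 UMIs came from 1 member of 14. A Gkn3 UMI was found in 15 of 30 members of the Lmx1b library, against 4 of 27 positive barcodes.

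Col4a1, a chain of basement-membrane collagen, had 857 CPM in arterial-like members and 3545 CPM in arterial-like positive barcodes of the Pdgfra library. Col4a1 had 599 CPM in Lmx1b members and 1932 CPM in Lmx1b positive barcodes. Col15a1, another vessel-associated collagen, stood at 116 CPM in members against 676 CPM in positive barcodes of the Pdgfra library, and at 92.3 CPM in members against 579 CPM in positive barcodes of the Lmx1b library. Plvap, the diaphragm protein of fenestrated vessels, stood at 168 CPM in members against 1225 CPM in positive barcodes in the Pdgfra library, a fold of 0.14 (0.10 to 0.19). Plvap in the Lmx1b library stood at 351 CPM in members against 999 CPM in positive barcodes, a fold of 0.35 (0.29 to 0.42). Kdr, the main VEGF receptor and a gene of the rule, was lower too, at 240 CPM in members against 743 CPM in positive barcodes of the Pdgfra library, and 153 CPM in members against 465 CPM in positive barcodes of the Lmx1b library. Over 4382 genes measured in both libraries outside the rule, 25 were at least 2-fold higher in arterial-like members in both and 46 at least 2-fold lower in both.

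Levels of the dissociation stress list and of mesenchymal genes moved with some of these values. Of all genes tested within the arterial-like cluster, 4.78% in the Pdgfra and 3.16% in the Lmx1b library were at least 2-fold higher in members. The stress list had 8 of 14 genes at least 2-fold higher in arterial-like members of the Pdgfra library, and its summed median was 77.3 CP10k in these members against 11.6 CP10k in arterial-like positive barcodes. The Lmx1b library had 0 of 14 higher, and the medians were 21.6 CP10k in members and 27.1 CP10k in positive barcodes. The mesenchymal list had 6 of 7 measured genes at least 2-fold higher in arterial-like members of the Lmx1b library, where its highest sum was 443 CP10k in a member and 62.7 CP10k in a positive barcode, with medians of 16.4 CP10k in members and 12.1 CP10k in positive barcodes. In the Pdgfra library 0 of 7 mesenchymal genes were at least 2-fold higher. The part of either list in the differences was not tested.

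**Figure D4:**
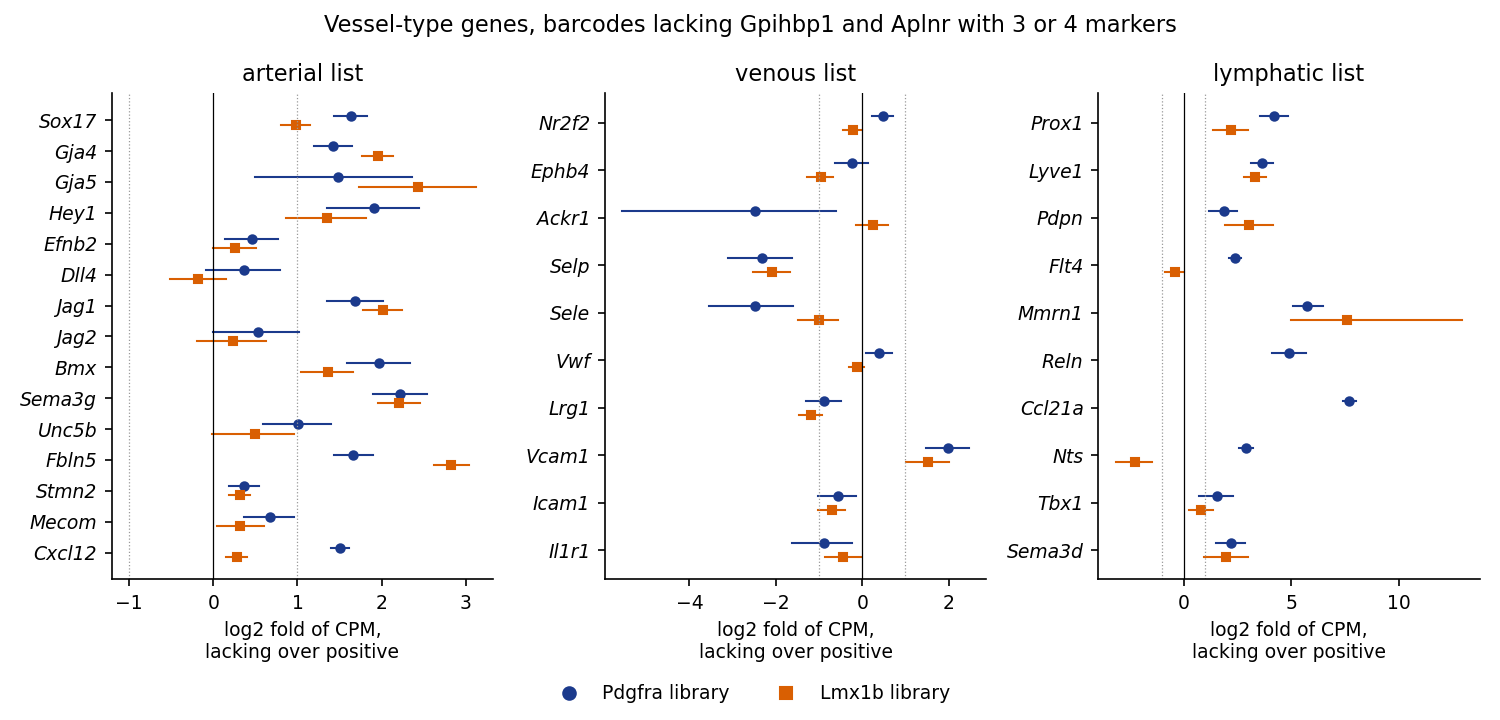
Each point is a gene of the arterial, venous or lymphatic list (y axis) in a library, with its log2 fold of CPM in members with 3 or 4 markers over positive barcodes (x axis) and the 95% interval of counting error, and dotted lines mark 2-fold. Ccl21a (0 UMIs in positive barcodes) and Reln (too few UMIs) have no point in the Lmx1b library. Arterial genes lie mostly to the right of 0, Selp and Sele to the left, and Flt4 and Nts on opposite sides in the 2 libraries.

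Lymphatic genes were higher in members, through few barcodes. All 10 measured genes of the lymphatic list were at least 2-fold higher in members of the Pdgfra library with 3 or 4 markers, and 6 of 9 measured genes in the Lmx1b library, where 1 was at least 2-fold lower. Of all genes tested, 3.65% and 7.66% were at least 2-fold higher and 8.0% and 7.68% lower. Prox1 had 89.9 CPM in members and 4.96 CPM in positive barcodes of the Pdgfra library, and 19.5 CPM in members against 4.20 CPM in positive barcodes in the Lmx1b library. Lyve1, a hyaluronan receptor of lymphatic capillaries, had 112 CPM in members against 9.02 CPM in positive barcodes in the Pdgfra and 66.8 CPM in members against 6.73 CPM in positive barcodes in the Lmx1b library. Mmrn1, multimerin 1, had 170 CPM in members against 3.16 CPM in positive barcodes in the Pdgfra library. Mmrn1 had 22 UMIs in members and 1 UMI in positive barcodes of the Lmx1b library, a ratio of CPM of 194 (31.4 to 8014). The C1q limit of the rule bears on macrophages, some of which express Lyve1.

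The 13 lymphatic-like members of the Pdgfra library carried several lymphatic genes at once. Ccl21a, a chemokine that guides leukocytes into lymphatics, ran at 1.78, 157 and 672 CP10k (lowest, median and highest) and was detected in 13 of 13. The files hold 2 features of that symbol, which were summed, and near-identical Ccl21 copies make its level uncertain. Mmrn1 ran at 2.15, 8.22 and 26.8 CP10k and was detected in 13 of 13. Flt4, the receptor for VEGF-C, ran at 5.12, 9.67 and 26.8 CP10k and was also detected in 13 of 13. Prox1 was detected in 11 and Lyve1 in 12 of these members. Cldn5, a tight-junction protein, was present at 11.5, 28.1 and 68.2 CP10k, whereas Esam was detected in 1 of 13 and Emcn in 4.

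The Lmx1b library had only 2 lymphatic-like members. Prox1 stood at 4.51 and 11.6 CP10k in them, Lyve1 at 16.2 and 22.1 CP10k and Ccl21a at 18.6 and 29.7 CP10k. Ccl21a had 0 UMIs in the 531 positive barcodes of that library, which allows up to 0.315 CPM. Over both libraries, lymphatic-like members were 12 of the 107 with 3 or 4 markers and 15 of all 274. Against all positive barcodes, 10 of 10 and 9 of 9 measured lymphatic genes were at least 2-fold higher in lymphatic-like members, beside 11.2% and 16.1% of all genes tested. Arterial genes were at least 2-fold lower in 9 of 15 and 11 of 15 cases, beside 30.4% and 52.6% of all genes tested, and these counts too follow from the naming of the cluster. With the lymphatic-like barcodes left out, an alternative chosen after the data were seen, the list's median log2 fold was 1.11 in the Pdgfra library, against 3.17 with them. The Lmx1b library gave 0.31 without and 1.98 with them.

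**Figure D5:**
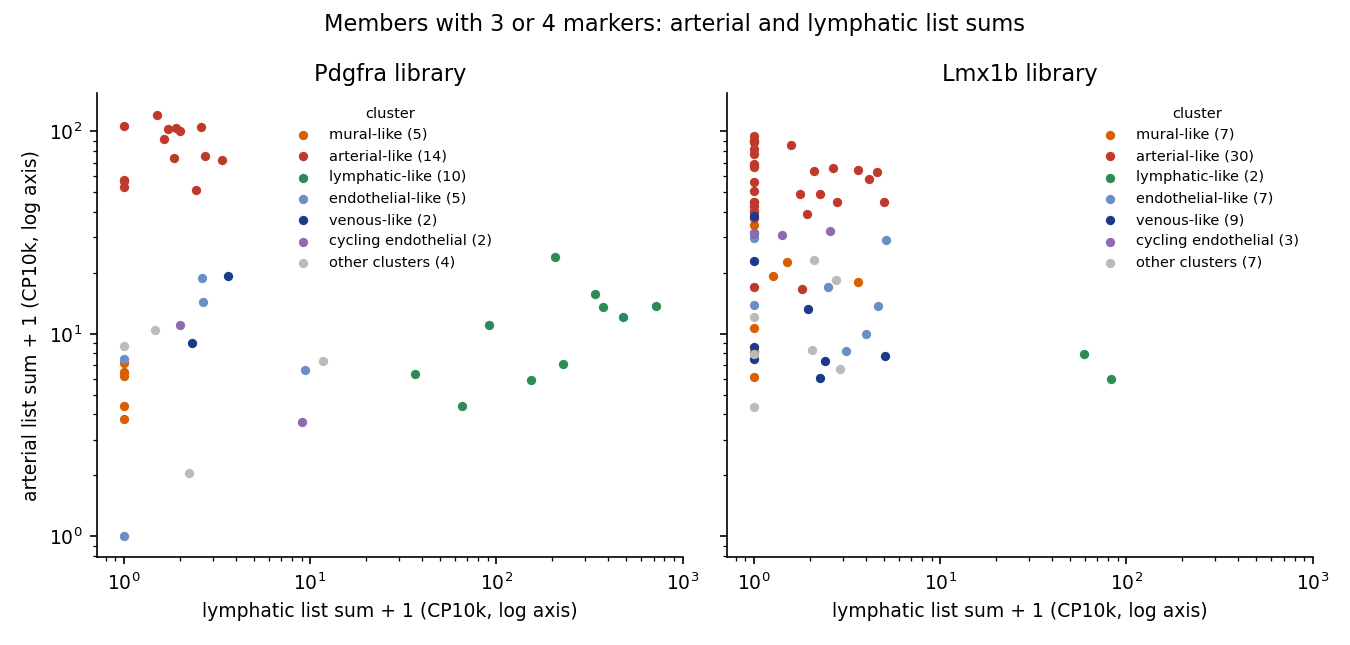
Each point is a member with 3 or 4 markers, with the summed lymphatic list on the x axis and the summed arterial list on the y axis (CP10k plus 1, log axes), coloured by cluster. Lymphatic-like members (10 and 2) lie at lymphatic sums of 35.5 CP10k and over, apart from the arterial-like members (14 and 30), whose arterial sums reach 120 and 93.4 CP10k.

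Arterial-like and lymphatic-like members shared some genes of both lists and not others. Arterial-like members of both libraries had 0 UMIs of Prox1, Lyve1, Mmrn1, Reln and Ccl21a, and lymphatic-like members of both had 0 UMIs of Sox17. Of the lymphatic list, Flt4 and Tbx1 were each detected in 5 of 14 arterial-like members of the Pdgfra library, and in 7 and 9 of 30 of the Lmx1b library. Of the arterial list, Unc5b was detected in 9 of 13 lymphatic-like members of the Pdgfra library, at 192 CPM, against 76.1 CPM in the arterial-like members. Fbln5 was detected in 8 of 13, at 316 CPM. With the arterial-like barcodes left out, the arterial list of the remaining marked members stood at a median log2 fold of −1.14 in the Pdgfra and 0.58 in the Lmx1b library. This alternative was chosen after the data were seen and takes out the barcodes whose cluster was named from arterial genes, so a lower value follows from the choice.

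Venous genes were divided, and so were adhesion molecules for leukocytes: the selectins Selp and Sele were lower in members, Vcam1 higher. Of 10 venous genes measured in each library, 3 were at least 2-fold lower in members with 3 or 4 markers of the Pdgfra and 2 in those of the Lmx1b library, against 8.0% and 7.68% of all genes tested. Selp, P-selectin, had 23.9 CPM in members and 120 CPM in positive barcodes of the Pdgfra library, a fold of 0.20 (0.12 to 0.32). Selp in the Lmx1b library had 44.5 CPM in members and 189 CPM in positive barcodes, a fold of 0.23 (0.17 to 0.31). Sele, E-selectin, had a fold of 0.18 in the Pdgfra library and 0.50 in the Lmx1b library. Icam1, which binds leukocyte integrins, was at 0.67-fold and 0.62-fold, short of 2-fold. Vcam1, another ligand of leukocyte integrins, had 68.9 CPM in members against 17.4 CPM in positive barcodes of the Pdgfra library, and 43.6 CPM in members against 15.1 CPM in positive barcodes of the Lmx1b library. Few barcodes carried it. A Vcam1 UMI was found in 4 of 14 and 7 of 30 arterial-like members of the Pdgfra and Lmx1b libraries. Among venous-like members it was found in 1 of 2 and 1 of 9, and among positive barcodes in 47 of 278 and 54 of 531.

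Venous transcripts were not absent from members. Nr2f2, the transcription factor of venous and lymphatic identity, was at 1.39-fold in the Pdgfra and 0.86-fold in the Lmx1b library, and Vwf, von Willebrand factor, at 1.32-fold and 0.92-fold. Nr2f2 was detected in 11 of the 13 lymphatic-like members of the Pdgfra library. Vwf was detected in 23.8% of members with 3 or 4 markers against 50.7% of positive barcodes of that library. The Lmx1b shares of Vwf were 60.0% of such members and 62.7% of positive barcodes. Ackr1, a chemokine-scavenging receptor of venules, had 2 UMIs in members of the Pdgfra library, a fold of 0.18 (0.02 to 0.66), and 73 UMIs in those of the Lmx1b library, a fold of 1.18 (0.91 to 1.51). The 9 venous-like members of the Lmx1b library had a summed venous list of 24.8, 40.9 and 67.9 CP10k (lowest, median and highest), against 2.04, 30.9 and 89.8 CP10k in 155 venous-like positive barcodes. The ranges overlapped, and both sides came from the same cluster. The 2 venous-like members of the Pdgfra library stood at 31.9 and 57.2 CP10k.

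Capillary and sprouting genes were lower in members with 3 or 4 markers. Of the capillary list, 5 of 5 measured genes in the Pdgfra and 5 of 6 in the Lmx1b library were at least 2-fold lower, beside 8.0% and 7.68% of all genes tested. Rgcc, a regulator of the cell cycle enriched in capillary endothelium, had 33.7 CPM in members and 331 CPM in positive barcodes of the Pdgfra library. Rgcc in the Lmx1b library had 25 CPM in members and 385 CPM in positive barcodes. Cd300lg, a capillary mucin-like receptor, stood at 12.7 CPM in members against 177 CPM in positive barcodes of the Pdgfra library, and at 16.7 CPM in members against 296 CPM in positive barcodes of the Lmx1b library. Apln, the ligand of Aplnr and a gene of tip cells, stood at 4.22 CPM in members against 95.2 CPM in positive barcodes of the Pdgfra library, and at 12.1 CPM in members against 124 CPM in positive barcodes of the Lmx1b library. Of 12 genes of the tip and angiogenic list, 6 in each library were at least 2-fold lower and 1 in each at least 2-fold higher, as were 3.65% and 7.66% of all genes tested.

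Genes of dividing cells and of lipid handling were also compared, beside 8.0% and 7.68% of all genes tested that were at least 2-fold lower in the Pdgfra and Lmx1b libraries. Of 12 cell cycle genes, 10 in the Pdgfra and 11 in the Lmx1b library were at least 2-fold lower in members, among them Mki67, a marker of dividing cells, with 5.62 CPM in members against 41.8 CPM in positive barcodes of the Pdgfra library, and 20.4 CPM in members against 60.8 CPM in positive barcodes of the Lmx1b library. Of 11 genes of lipid handling, 3 in each library were at least 2-fold lower. Scarb1, a lipoprotein receptor, was among them in both, at 0.27-fold in the Pdgfra and 0.40-fold in the Lmx1b library. Fabp5, a fatty acid carrier, was at 0.36-fold in the Pdgfra library and at 0.62-fold, short of 2-fold, in the Lmx1b library. Plvap was among the largest differences of the endothelial list, with 173 CPM in members against 1145 CPM in positive barcodes in the Pdgfra and 433 CPM in members against 2189 CPM in positive barcodes in the Lmx1b library. Cldn5 was the only gene of the 20 measured outside the rule that was at least 2-fold higher, with 1886 CPM in members against 303 CPM in positive barcodes of the Pdgfra library, and 1506 CPM in members against 396 CPM in positive barcodes of the Lmx1b library. Ptprb, a vascular phosphatase, stood at 1.18-fold and 1.00-fold, and Cd34 at 0.54-fold and 0.46-fold.

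Across the whole table, 11121 genes outside the rule were measured in both libraries for barcodes with 3 or 4 markers. In both libraries 166 were at least 2-fold higher in members and 260 at least 2-fold lower. Ranked by the smaller of the 2 folds, the upper 12 were Ccl21a, Gkn3, Mmrn1, Efhd1, Lyve1, Gal, Col9a3, Nebl, Actg2, Mgp, Hey2 and Plek2. Of these, Col9a3 was also a leading gene of chondrocyte-like clusters, Actg2 and Mgp of mural-like clusters and Gal of an osteoblast-like cluster. Ccl21a, Mmrn1 and Lyve1 led the lymphatic-like cluster. The 107 members with 3 or 4 markers included 12 in mural-like and 11 in other clusters. The part of these barcodes in the ranking was not tested. Efhd1, a mitochondrial calcium-binding protein, had 67.4 CPM in members against 5.26 CPM in positive barcodes in the Pdgfra and 56.6 CPM in members against 5.25 CPM in positive barcodes in the Lmx1b library. The 12 lowest were Cd300lg, Lrrc55, Adamtsl2, Apln, Rgcc, Ramp3, St8sia4, Mogat2, Exoc3l2, Brca1, Vwa1 and Col15a1. Lrrc55, Mogat2 and Brca1 had 0 UMIs in members of both libraries. Brca1 had only 36 and 48 UMIs in positive barcodes of the Pdgfra and Lmx1b libraries, and its Pdgfra fold interval of 0 to 1.01 included 1. Over all 274 members the mural share showed in the same ranking. Kcnj8, Higd1b and Lmod1, genes known from mural cells, were among the 12 ranked highest. In the Lmx1b library 10 of 10 measured mural genes were at least 2-fold higher in members, with a median log2 fold of 5.06, where 11.0% of all genes tested were higher and 10.2% lower. In the Pdgfra library 6.25% of all genes tested were at least 2-fold higher in members and 8.77% lower.

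RNA of other cell types lay on both sides of the comparison and differed between the libraries. In members of the Lmx1b library with 3 or 4 markers, 9 of 9 measured mural genes and 9 of 9 mesenchymal genes were at least 2-fold higher than in positive barcodes. In the Pdgfra library 2 of 9 mural and 0 of 10 mesenchymal genes were. The summed mural list had medians of 1.69 CP10k in members and 1.50 CP10k in positive barcodes of the Pdgfra library, and 1.11 CP10k in members and 0.881 CP10k in positive barcodes of the Lmx1b library. It reached 425 and 479 CP10k in single members of the Pdgfra and Lmx1b libraries. The summed mesenchymal list reached 751 and 2588 CP10k in single members of the Pdgfra and Lmx1b libraries, both in other clusters. With barcodes of other lineages left out, the arterial list's median log2 fold was 1.83 in the Pdgfra and 1.32 in the Lmx1b library, against 1.41 and 0.97 with them. Of the positive barcodes of the Pdgfra library, 22 lay in the unnamed cluster led by Mfap4 and Svep1. Macrophage genes had medians of at most 0.547 CP10k in members with 3 or 4 markers. Doublet scores marked 0 and 4 members and 24 and 6 positive barcodes in the Pdgfra and Lmx1b libraries.

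With UMIs summed over each set, the reporter was lower in members of the Pdgfra library. tdTomato stood there at 1731 CPM (1636 to 1830) in members with 3 or 4 markers and 2415 CPM (2378 to 2453) in positive barcodes, against 451 CPM in its macrophages. Of these positive barcodes, 29 of 278 lay in other clusters, 22 of them in the unnamed cluster led by Mfap4 and Svep1. The 29 had a median of 62015 UMIs, against 13415 UMIs for all 278. Their part in the summed tdTomato level was not tested. By cluster, tdTomato stood at 1433 CPM (1289 to 1590) in the 14 arterial-like members. In the 13 lymphatic-like members tdTomato stood at 2207 CPM (1949 to 2489), an interval that overlaps that of positive barcodes. In the Lmx1b library it stood at 278 CPM (248 to 312) in members and 291 CPM (281 to 302) in positive barcodes, with overlapping intervals, against 44.3 CPM in macrophages. A tdTomato UMI was found in 90.5% of members and 93.9% of positive barcodes of the Pdgfra library, and in 80.0% of members and 91.1% of positive barcodes of the Lmx1b library. It was also found in 86.0% and 55.4% of macrophages, so that its detection in a member does not by itself mark recombination there.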

How the data were processed

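The deposited files hold raw UMI counts. Per the file headers the authors used Cell Ranger 4.0.0, and per the labels' protocols reads were aligned to mm10 with a tdTomato sequence. The files hold 28001 features under 27936 symbols (features of a symbol were summed), of which 27645 IDs matched GENCODE vM21. Trac was not found under that symbol. The members and gene lists were chosen with earlier results of these data known.

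From these counts, barcodes that passed were clustered with scanpy 1.11.5 (2000 variable genes, 30 components, 15 neighbours, Leiden resolution 1.0), and clusters were named from marker lists. A gene counted as measured with at least 20 UMIs over both sides. Folds are ratios of summed CPM with exact intervals of 2 Poisson counts, and log2 folds use a pseudocount of 1 CPM. Genes were named where at least 2-fold the same way in both libraries, 12 each way by the smaller fold, beside listed genes, leading cluster genes and genes of the rule. Doublets, Scrublet's top 0.8% per 1000 barcodes, were left out only as an alternative, since its automatic threshold marked 2 and 0 barcodes. The fold calculation was tested on simulated data.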

Additional observations from a re-analysis of the deposited data

Results flagged for a closer look

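Given here are genes of the vessel lists, and medians of lists, that lay at least 2-fold on opposite sides in the 2 libraries, for members with 3 or 4 markers over positive barcodes. Genes whose sign differed without 2-fold on both sides, such as Flt4, Ackr1, Nr2f2 and Dll4, are not listed. The difference between the libraries was not tested, since each line has 1 library. Nts, neurotensin, had a log2 fold of 2.83 in the Pdgfra library (201 CPM in members against 27.4 CPM in positive barcodes) and −2.17 in the Lmx1b library (12.1 CPM in members against 57.7 CPM in positive barcodes). It was detected in 10 of the 13 lymphatic-like members of the Pdgfra library. The Schwann cell list had a median log2 fold of −1.14 in the Pdgfra library and 2.92 in the Lmx1b library.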

How the results depend on the processing

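Recomputed under the alternatives, 38 values moved by more than their counting interval and 38 did not. The share of endothelial barcodes lacking both genes (27.8% in the Pdgfra, 22.0% in the Lmx1b library) was 12.4% and 10.4% among barcodes with at least 3 of 4 markers, 11.1% and 8.49% with an endothelial sum of at least 20 CP10k, 12.1% and 8.29% with other lineages left out, and 40.3% and 34.7% with each barcode thinned to 3000 UMIs. Under stricter limits, 1000 genes and 5% mitochondrial UMIs, it was 36.6% in the Pdgfra library. The median log2 fold of the arterial list over all members (0.57 and 0.16) became 1.41 and 0.97 with 3 of 4 markers, 1.74 and 1.18 at 20 CP10k, and 1.84 and 1.32 without other lineages. In the Pdgfra library it was 1.22 under the stricter limits, 0.19 as a mean of each barcode's CPM and −0.10, with the opposite sign, when thinned. The lymphatic list (2.18 and 0.84) became 3.17 and 1.98 with 3 of 4 markers, 3.69 and 2.50 at 20 CP10k, and 4.02 and 2.77 without other lineages. In the Pdgfra library it was 2.76 under the stricter limits, 1.80 against barcodes with at least 1 UMI, 2.82 as a mean of CPM, 1.69 with a pseudocount of 10 CPM and 3.45 when thinned. The venous list (−1.19 and −1.51) became −0.72 and −0.56 with 3 of 4 markers, −0.57 and −0.54 at 20 CP10k, −0.71 and −0.46 without other lineages, −0.47 and −1.78 under the stricter limits, and −0.21 when thinned in the Lmx1b library. The cause was not tested. Thinned values rest on 167 members of the Pdgfra and 251 of the Lmx1b library, since thinning changed which barcodes lacked both genes. Among alternatives chosen after the data were seen, leaving out arterial-like barcodes turned the arterial list of members with 3 or 4 markers to −1.14 in the Pdgfra library, against 1.41 with them; this alternative takes out the barcodes whose cluster was named from arterial genes. At resolution 0.5 the arterial-like barcodes merged with the endothelial-like cluster and the lymphatic-like with cycling cells, so no share was given. Depth limits which barcodes can be called lacking. No paired analysis was possible because each line has 1 library and the labels carry no replicate numbers.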
